A study of Mus musculus with 10 samples.

Results

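Introns of protein-coding and noncoding genes held 9225 of the regions of accessible chromatin found in mouse sperm, and 4516 of these (49.0%) contained a run of at least 10 tandem CA or TG units. The 2 spellings are the same repeat read on opposite strands. The regions were built by merging the ATAC-seq peak intervals of 10 libraries wherever they overlapped by at least 1 bp, which gave 113493 merged regions. The 24763 regions with a peak in at least 2 libraries were taken as consensus regions. A region was counted as intronic if it lay on an autosome, more than 3 kb from every transcript start of the GENCODE M21 annotation, inside a transcript and outside every exon. Intronic regions with a run made up 18.2% of all consensus regions, and the other 4709 intronic regions served for comparison. No measured accessibility value entered the choice beyond the presence of peaks in 2 libraries.

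ATAC-seq marks open chromatin by the sites at which a transposase cuts and tags DNA. It was applied to mature sperm released from the cauda epididymis of wild-type C57BL/6JRccHsd males, with 1 library per mouse. F0 CD males (n = 6) received a standard chow diet and F0 WD males (n = 4) a Western diet rich in fat, both for 6 months. These numbers follow the sample titles, whereas 1 sentence of the submitters' protocol gives the group sizes the other way round. The sperm were washed and counted, and no step that removes other cells is described in the sources used here. The paper reports a quantitative PCR of its sperm preparations in which C-kit, of testicular germ cells, and E-cadherin, of epithelial cells, were not detected.

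The CA/TG dinucleotide repeat is among the most common short tandem repeats of the mouse genome. Alternation of purine and pyrimidine lets such repeats adopt the left-handed Z form of DNA under torsional stress, and their copy number changes readily by slippage during replication. In introns they are transcribed, and CA-rich RNA is bound by hnRNP L, a splicing regulator. In mature sperm most histones have been replaced by protamines, and the regions that remain open to a transposase are correspondingly few. Runs of this kind are also difficult to align with short reads, because many places in the genome share the same sequence.

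The sequences around the strongest summits show how these regions are built. Each line below gives 201 bases of the plus strand of mm10 (GRCm38), centred on the summit with the most significant peak, and capitals mark blocks of at least 3 CA or TG units. The Tcp10c and Crybg3 regions had the most reads among those found in all 10 libraries. The Asb14 and Rps6kc1 regions were found in every F0 WD library and in no F0 CD library, the Kcnma1 and Gsg1l regions in every F0 CD library and in 1 F0 WD library, and the Cfap299 region had the longest run.
Tcp10c, chr17:13367749-13367949: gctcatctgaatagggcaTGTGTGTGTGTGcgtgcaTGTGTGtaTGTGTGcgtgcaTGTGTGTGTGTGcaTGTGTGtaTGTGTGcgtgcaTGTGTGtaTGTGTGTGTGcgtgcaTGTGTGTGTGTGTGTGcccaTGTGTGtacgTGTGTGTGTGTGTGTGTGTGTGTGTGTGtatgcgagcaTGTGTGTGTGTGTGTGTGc
Crybg3, chr16:59549713-59549913: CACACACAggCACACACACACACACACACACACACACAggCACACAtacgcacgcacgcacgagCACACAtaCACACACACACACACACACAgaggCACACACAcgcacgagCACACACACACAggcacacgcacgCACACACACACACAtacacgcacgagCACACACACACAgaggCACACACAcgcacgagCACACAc
Asb14, chr14:26912704-26912904: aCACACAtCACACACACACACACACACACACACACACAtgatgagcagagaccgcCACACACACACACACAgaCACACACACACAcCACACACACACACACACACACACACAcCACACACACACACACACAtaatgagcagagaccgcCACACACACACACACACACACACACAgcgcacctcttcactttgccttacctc
Rps6kc1, chr1:190884270-190884470: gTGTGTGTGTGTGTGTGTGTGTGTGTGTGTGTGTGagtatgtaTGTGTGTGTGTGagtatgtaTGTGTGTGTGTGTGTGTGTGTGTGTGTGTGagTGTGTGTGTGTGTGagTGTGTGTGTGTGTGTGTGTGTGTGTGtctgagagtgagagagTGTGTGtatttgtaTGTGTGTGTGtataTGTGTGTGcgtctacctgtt
Kcnma1, chr14:23720998-23721198: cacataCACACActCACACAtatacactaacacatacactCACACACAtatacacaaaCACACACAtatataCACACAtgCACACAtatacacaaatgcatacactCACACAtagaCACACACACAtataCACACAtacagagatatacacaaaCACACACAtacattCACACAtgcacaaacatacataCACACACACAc
Gsg1l, chr7:125926075-125926275: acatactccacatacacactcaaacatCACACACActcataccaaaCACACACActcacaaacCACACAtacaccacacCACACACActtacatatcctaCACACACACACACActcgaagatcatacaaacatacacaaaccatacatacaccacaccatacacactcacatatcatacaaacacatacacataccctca
Cfap299, chr5:98757412-98757612: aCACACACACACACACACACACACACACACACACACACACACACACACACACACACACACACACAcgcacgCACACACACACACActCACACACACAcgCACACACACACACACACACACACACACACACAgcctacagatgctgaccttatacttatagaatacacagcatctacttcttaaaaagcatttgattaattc

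In these windows the repeat was rarely a single stretch. The Tcp10c window held 12 blocks with 66 units, and the Crybg3 window 11 blocks with 64 units, with the longest run of either region at 14 units. The Kcnma1 window held 12 blocks with 43 units, and its region's longest run, of 18 units, began near the end of the window. The Gsg1l window was the poorest of those shown, with 22 units in 5 blocks, and the 15-unit run that qualified this region lay outside it.

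The same structure held over all 4516 regions. Their longest run spanned 10 to 107 units with a median of 18, and 2917 regions had a single run of 10 or more units while 1599 (35.4%) had 2 or more. When every block of at least 3 units was counted, the median region held 61 units in 10 blocks (interquartile ranges 37.8 to 92 units and 5 to 17 blocks). Blocks covered a median of 33.8% of the bases. Among the 4234 regions with 2 or more blocks, 84.5% had all of them in one orientation, either CA throughout or TG throughout on the plus strand. The bases outside the blocks had a median GC content of 43.4%, against 45.1% in the other intronic regions. A GA or CT run of at least 6 units was present in 8.88% of the regions, against 2.89% of the other intronic regions. A median of 61.5% of the bases outside the blocks was masked as repeats in the reference, against 51.3%. These sequence differences are descriptive, and regions that overlap or lie close together are not independent.

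The limit of 10 units did not mark a break in the sequence. Just inside it, 227 regions had a longest run of exactly 10 units and were found in a median of 3 libraries. Just outside it, 257 other intronic regions had a longest run of 9 units and were found in a median of 4 libraries, and 331 had one of 8 units. Of the other intronic regions 46.2% had a block of 5 to 9 units and 25.1% had no block of 3 units at all, and their median was 22 units. At the other end, 339 regions (7.51%) had a run of 25 or more units, at least as long as a 50-bp read. Of the 32177 intronic regions with a peak in a single library, which were not consensus regions, 6402 (19.9%) held a run of 10 or more units.

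Runs were concentrated at the summits themselves. For every library, the strongest summit of each intronic consensus region with a peak was taken. Positions within 50 bp of these summits lay in a run in 6.32% to 9.0% of cases, whereas positions 400 to 500 bp away did so in 0.729% to 0.873% of cases. The mean was 7.61% at the summit and 0.792% in the flank (difference 6.82 percentage points ± 0.836, SD, n = 10 libraries). The difference was positive in 10 of 10 libraries, with an exact two-sided sign-flip test p = 0.00195, the smallest that 10 libraries can give (0.00391 after Benjamini-Hochberg adjustment over 6 within-library comparisons). All intronic consensus regions entered this comparison, with and without a run. The ratio of summit to flank was 7.72 to 10.9 across libraries. At the summit the share was 6.32%, 7.69%, 6.73%, 8.38%, 7.01% and 6.95% in F0 CD replicates 1 to 6 and 7.69%, 8.18%, 9.0% and 8.13% in F0 WD replicates 1 to 4. The difference between summit and flank did not differ between the diets at the threshold of 0.05 (exact permutation test over 210 assignments, p = 0.0524), and the groups overlapped.

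**Figure D1:**
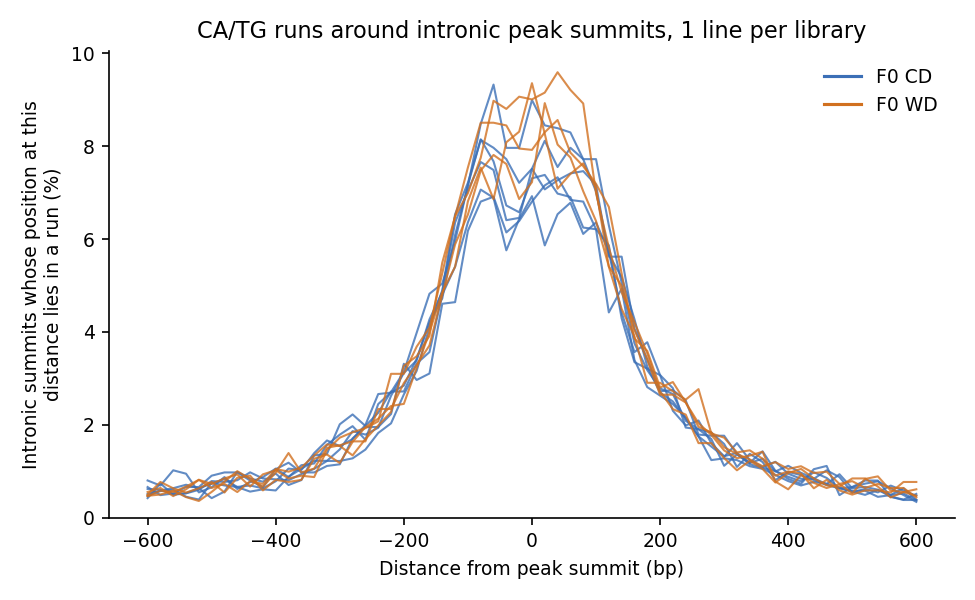
Share of intronic peak summits (y axis, %) for which the position at a given distance (x axis, bp) lay in a CA/TG run of at least 10 units, with 1 line for each of 6 F0 CD and 4 F0 WD libraries. All 10 lines peak within about 100 bp of the summit and fall to under 1% at 600 bp.

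The strongest summit seldom coincided with the longest run. It lay inside that run in 590 regions (13.1%), within 50 bp of it in 45.2% and within 100 bp in 71.4%, with a median distance of 58 bp. In the plot of runs around summits the shares form a broad plateau, with no offset common to the libraries. The largest share lay at -80 bp in F0 CD replicate 1 (7.06%, against 6.92% at the summit) and at the summit itself in F0 WD replicate 4 (9.36%). In the submitters' peak calling each transposase cut was extended to cover 200 bp, so a summit counts the cuts within 100 bp of it and cannot be placed more finely.

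Most runs in introns were not in accessible regions. The autosomes of mm10 held 98366 runs of at least 10 units in introns more than 3 kb from a transcript start, of which 7852 (7.98%) lay in a consensus region. Of the 118163 runs in distal intergenic sequence, 7.23% did. A run counted as lying in a consensus region, of any class, if it overlapped one by at least 1 bp. Longer runs meet this rule more easily, and that was not corrected for. Within each library, intronic runs were overlapped by a peak more often than distal runs, with means of 3.43% and 3.08% (difference 0.348 percentage points ± 0.148, SD, n = 10, higher in 10 of 10 libraries, exact sign-flip p = 0.00195, adjusted p = 0.00391). The share of intronic runs under a peak was 2.36%, 6.13%, 2.50%, 3.59%, 2.43% and 3.91% in the F0 CD libraries and 3.63%, 3.56%, 4.02% and 2.16% in the F0 WD libraries. The spread between libraries was thus far larger than the difference between introns and intergenic sequence. The 2 classes of region were alike in sequence, with a median of 61 block units in both. Distal regions with a run numbered 5060 of 10548 (48.0%).

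Short runs were found more often than long ones when the surroundings were disregarded. Runs of 10 to 14 units were overlapped by a peak in a mean of 4.80% of cases and runs of 20 or more units in 2.47% (difference -2.33 percentage points ± 0.808, SD, n = 10). The difference was negative in 10 of 10 libraries (exact sign-flip p = 0.00195, adjusted p = 0.00391). Over the consensus regions, 13.4% of runs of 10 to 11 units overlapped one, and the share fell through each longer class to 3.64% of runs of 30 to 39 units. In the class of 40 or more units 9 of 34 runs lay in a region, which is too few runs for a trend.

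The surroundings of a run separated the classes further. CA/TG units in other blocks of at least 3 units were counted within 100 bp on each side of every intronic run. Of the 40507 runs with no further units, 404 (0.997%) lay in a consensus region. The share was 4.03% with over 5 and up to 10 further units, 17.1% with over 15 and up to 20, and 55.3% with over 30, where 3716 of 6718 runs lay in a region. Runs with over 20 further units were 12.3% of all intronic runs and 65.2% of those in consensus regions. Within libraries, the share under a peak was higher with over 20 further units than with none by 16.7 percentage points on average (9.67 to 29.7 across libraries, higher in 10 of 10, exact sign-flip p = 0.00195). This comparison was added after the data had been examined, and runs that lie in the same region count each other's units and are not independent.

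With the surroundings held fixed, the relation to run length changed. Among runs with no further units the share in a consensus region was 0.582% for 10 to 14 units, 0.917% for 15 to 19 units and 1.27% for 20 or more units. Within libraries the difference between 20 or more and 10 to 14 units was then positive, at 0.585 percentage points (10 of 10 libraries, exact sign-flip p = 0.00195). Among runs with over 20 further units the order stayed as before, with 44.1%, 41.3% and 38.3%. A direction for run length by itself therefore cannot be given without naming the surroundings.

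**Figure D2:**
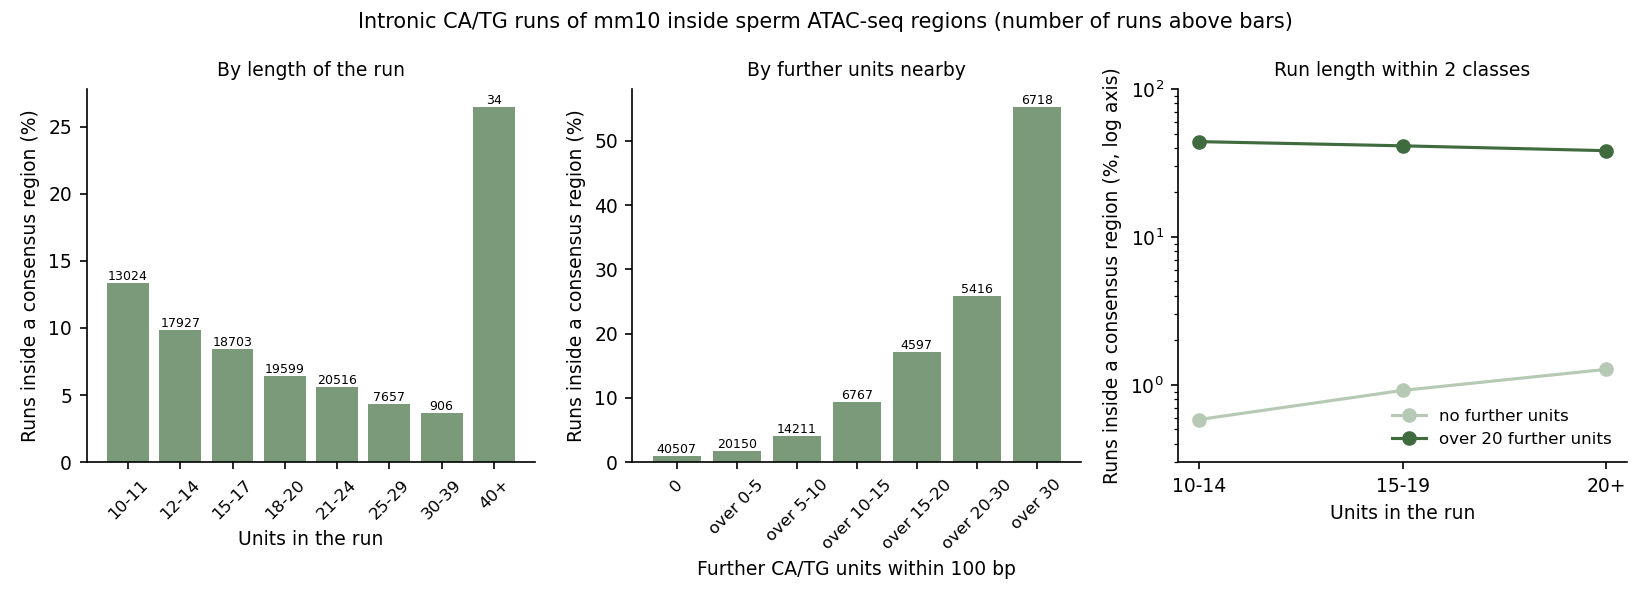
Share of intronic CA/TG runs of mm10 that overlapped a consensus region (y axes, %), by units in the run (left), by further CA/TG units within 100 bp (middle) and by units in the run for runs with no further units and with over 20 (right, log axis). The number of runs stands above each bar, the share rises from 0.997% to 55.3% with further units, and the last class on the left rests on 34 runs.

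Base composition and orientation moved with the same shares. The share of runs in a consensus region was 1.22% where the GC content of the 100 bp on each side was at most 35% and 19.98% where it was above 55%. Among the runs with flank GC of over 40% and up to 45%, the share still ran from 0.891% with no further units to 39.8% with over 20. Runs whose further units all had the same orientation lay in a region in 15.2% of cases, and runs with some units reversed in 4.77%. A GA or CT run of at least 6 units within 100 bp went with a lower share, 3.72% against 8.65% without one. Flanks of runs in consensus regions were masked as repeats over a median of 67.5% of their bases, against 40.5% for other runs. Alignability was not measured here, and its part in these shares was not tested.

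With a run counted anywhere in the merged region, regions with a run were found in more libraries than the other intronic regions. In each library, the share of the 4516 regions that had a peak was set beside the same share of the 4709 other intronic regions. The means were 39.2% and 34.0% (difference 5.21 percentage points ± 3.30, SD, n = 10, higher in 9 of 10 libraries, exact sign-flip p = 0.00391, adjusted p = 0.00586). F0 CD replicate 3 was the exception, with 31.0% against 31.1%. When a run was required within 100 bp of the strongest summit, the direction turned, and the difference was -2.03 percentage points (exact sign-flip p = 0.0449). The result thus depends on counting runs anywhere in the region. A merged region also widens with each library that has a peak, from a median of 289 bp with 2 libraries to 644 bp with all 10. A widely found region can therefore meet the run rule more easily, and the test cannot separate the 2.

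Peaks at these regions were also slightly higher and wider. At the strongest summit per region and library, the median was 17.4 reads on average over libraries, against 16.5 in the other intronic regions (difference 0.9 ± 0.568 reads, SD, n = 10, higher in 8 of 10 libraries and equal in the others, exact sign-flip p = 0.00781, adjusted p = 0.00781). Reads at a summit were solved, as whole numbers, from the fold and the p-value of each peak. A matching number was found for all 17724 peaks of these regions, from 9 to 53 reads with a median of 17. The median peak width was 260.8 bp against 256.4 bp (difference 4.45 ± 3.42 bp, SD, 9 of 10 libraries, exact sign-flip p = 0.00586, adjusted p = 0.00703). A wider interval can hold a run more easily, and with the run required near the summit the difference in width was -12.7 bp (exact sign-flip p = 0.00195). Among regions found in at least 3 libraries neither difference passed the test (0.3 reads with p = 0.5 and 1.65 bp with p = 0.324 by the exact sign-flip test), and at a q under 0.01 the difference in reads was 0.4 (exact p = 0.125). The merged regions had median widths of 360 and 354 bp.

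Breadth of detection rose with the amount of repeat and not with the length of the longest run. Of the 4516 regions, 1741 (38.6%) had a peak in 2 libraries, against 50.03% of the other intronic regions, and 73 (1.62%) had a peak in all 10, against 1.83%. The median number of units in blocks was 37 in regions found in 2 libraries, 66 in 3 to 5, 107 in 6 to 9 and 153 in all 10. The median longest run was 18, 18, 17 and 16 units in the same classes. Median width rose alongside, from 289 to 644 bp, and so did the median number of reads at the summit, from 16 to 20. Width and total units cannot vary independently here, since a merged region grows with each library added, and their parts were not tested.

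**Figure D3:**
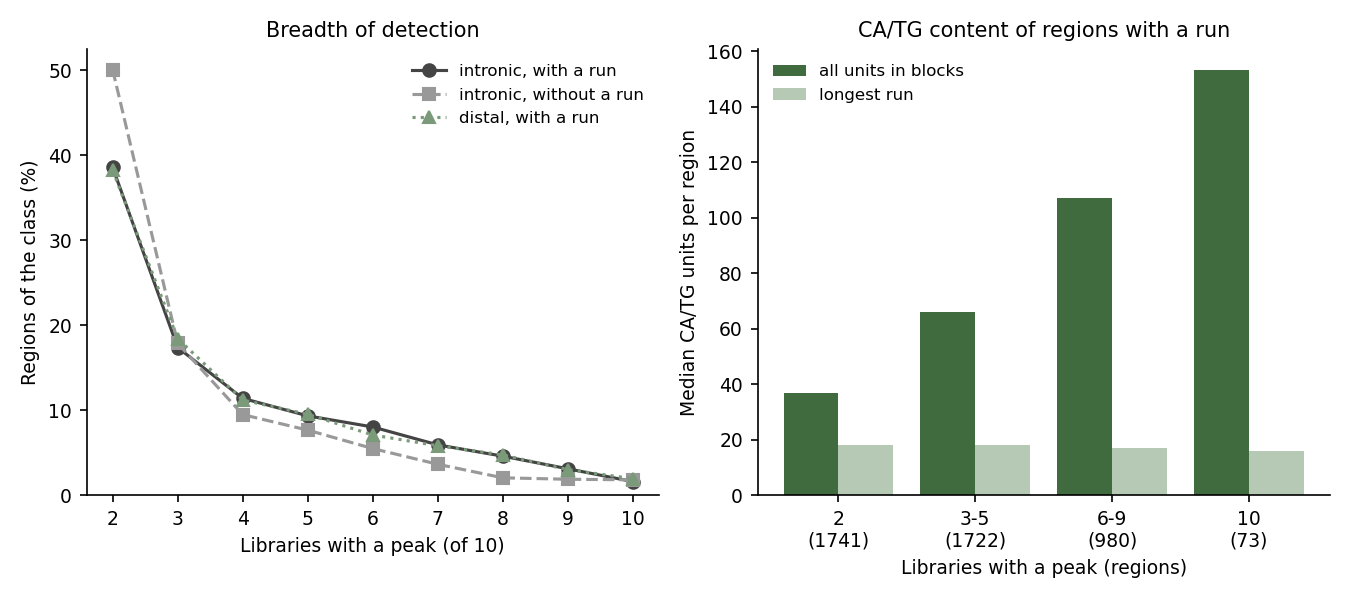
Left, share of regions (y axis, %) with a peak in 2 to 10 libraries (x axis) for intronic regions with a run, other intronic regions and distal regions with a run. Right, median CA/TG units per region in all blocks and in the longest run, by number of libraries with a peak, with the number of regions below each class. Total units rise from 37 to 153 while the longest run stays at 16 to 18.

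Among the regions found in all 10 libraries, the Tcp10c region had the most reads. Tcp10c encodes a member of the t-complex protein family expressed in the male germ line. Its region (chr17:13367670-13368056, 387 bp) had 33, 44, 53, 35, 42 and 42 reads in the F0 CD libraries and 34, 24, 44 and 40 in the F0 WD libraries, and the groups overlapped. The Crybg3 region (chr16:59549643-59550008) followed with 43, 46, 47, 26, 24 and 46 reads in F0 CD and 42, 37, 24 and 30 in F0 WD. The region in Rasgef1b, a Ras guanine nucleotide exchange factor, spanned 880 bp with 274 units in 43 blocks and had 15 to 31 reads. The Stau2 region, in a gene for a double-stranded RNA-binding protein of RNA transport, held 205 units in 40 blocks with no run over 13 units, and had 14 to 42 reads.

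Regions with very long runs were not always widely found. The Cfap299 region (chr5:98757180-98757566), in a gene for a protein associated with cilia and flagella, held the run of 107 units and had a peak in 2 libraries, with 12 reads in F0 CD replicate 6 and 14 in F0 WD replicate 3. The region in the pseudogene Cyp2c52-ps had a run of 71 units that reached past its edge, and a peak in 8 libraries with 14 to 23 reads. The strongest summit of the Cyp2c52-ps region lay more than 400 bp from that run, and the 201 bases around it held 14 shorter blocks with 75 units.

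The comparison between diets asked whether Western diet feeding changed which of these regions were accessible. The regions with a run that had a peak numbered 1438, 2787, 1401, 1814, 1394 and 2141 in F0 CD replicates 1 to 6 and 1891, 1856, 1880 and 1122 in F0 WD replicates 1 to 4. F0 CD replicate 2 was the highest and F0 WD replicate 4 the lowest, and these were also the libraries with the most and the fewest peaks in all, 29532 and 13366. The mean was 1829 ± 555 in F0 CD and 1687 ± 377 in F0 WD (SD). The difference of -142 regions was smaller than the spread (SE 295, exact permutation test over 210 assignments, two-sided, p = 0.705). Without F0 CD replicate 2 the difference was 40.3 regions in the other direction, and without F0 WD replicate 4 it was 52.8.

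The share of detected intronic regions that held a run is less dependent on the number of peaks. It was 50.8%, 52.5%, 48.9%, 54.9%, 50.9% and 52.6% in F0 CD and 52.7%, 54.2%, 55.0% and 50.95% in F0 WD. The groups overlapped over most of their range. The mean was 51.8% ± 2.05 in F0 CD and 53.2% ± 1.78 in F0 WD (SD, difference 1.46 percentage points, SE 1.22, exact permutation p = 0.271, adjusted p = 0.546 over 4 diet comparisons). The median longest run of the detected regions was 17 units in every library but F0 WD replicate 4, where it was 18 (exact permutation p = 0.4, adjusted p = 0.546). The median ratio of summit reads to local background was 4.10 ± 0.396 in F0 CD and 4.33 ± 0.440 in F0 WD (difference 0.226, SE 0.273, exact permutation p = 0.410, adjusted p = 0.546). This difference was 0.0534 without F0 WD replicate 2 and 0.392 without F0 WD replicate 4. None of the 4 comparisons passed the test.

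**Figure D4:**
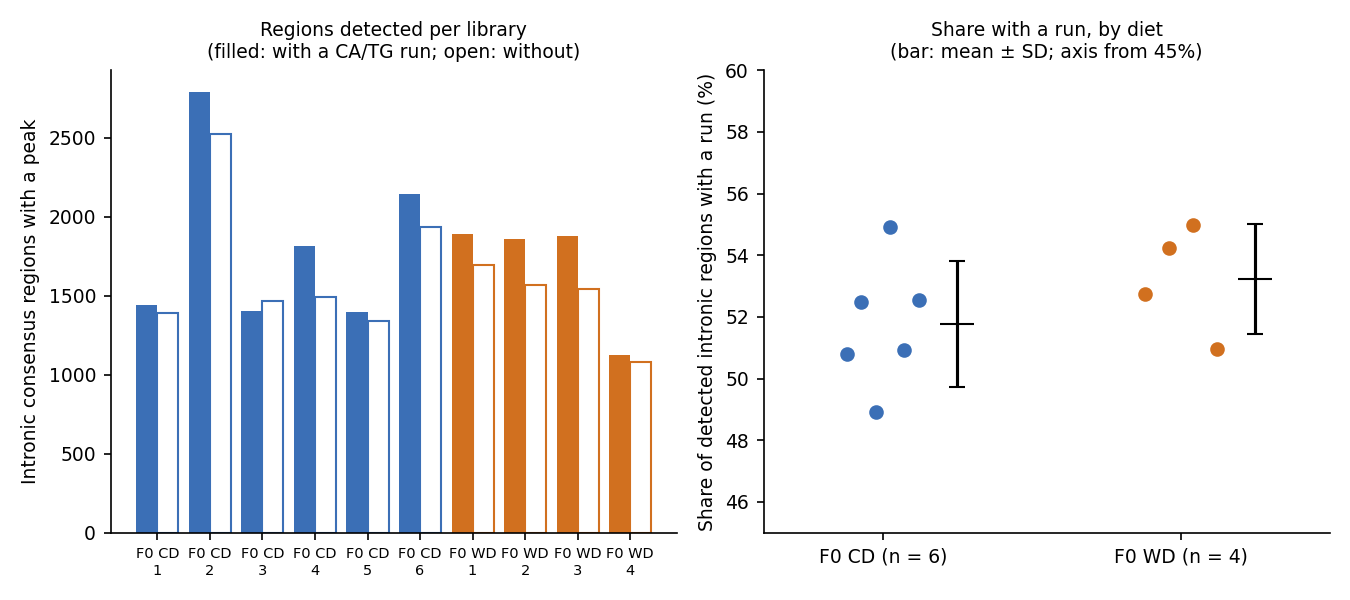
Left, number of intronic consensus regions with a peak in each library (y axis), filled for regions with a CA/TG run and open for regions without. Right, share of detected intronic regions with a run (y axis, %, starting at 45%) for 6 F0 CD and 4 F0 WD libraries, each point 1 library and the bars the mean ± SD. The libraries range from 48.9% to 55.0% and the diets overlap.

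Region by region, 51 of the 4516 regions with a run differed in detection between the diets at an unadjusted p under 0.05 (Fisher's exact test, two-sided). None did after Benjamini-Hochberg adjustment over all 24763 consensus regions, where the smallest adjusted p was 1. With 6 and 4 libraries this test gives no p under 0.00476, so only a very large number of completely separated regions could pass the adjustment. The adjusted values therefore cannot tell whether the diets differ at a region. Of the 51 regions, 37 (0.819%) were found more often in F0 WD, against 0.553% of all consensus regions, and 14 (0.31%) more often in F0 CD, against 0.468%. The other intronic regions gave 17 (0.361%) and 20 (0.425%), and distal regions with a run 33 (0.652%) and 39 (0.771%). The share was thus above that of all consensus regions towards F0 WD and below it towards F0 CD, and neither difference was tested. Among distal regions with a run the larger share was in the other direction. With the mid-p form of the test 47 regions (1.04%) were found more often in F0 WD, against 0.783% of all consensus regions, and 54 (1.2%) more often in F0 CD, against 1.39%. The counts also moved when single libraries were left out, and the counts over all consensus regions moved with them. The 37 became 60 (1.58%, against 1.19% of all consensus regions) without F0 CD replicate 2 and 24 (0.585%, against 0.41%) without F0 WD replicate 3. The 14 became 36 (0.842%), 45 (1.06%), 36 (0.873%), 49 (1.15%) and 27 (0.661%) without F0 CD replicates 1, 3, 4, 5 and 6. Of all consensus regions 234 (1.01%), 272 (1.21%), 232 (1.02%), 284 (1.23%) and 193 (0.869%) were called towards F0 CD in these fits. Without F0 WD replicates 1 and 2 the 14 became 27 (0.655%) and 30 (0.719%), beside 165 (0.739%) and 157 (0.689%) of all consensus regions. Of the 37 regions, 24 were found in 3 F0 WD libraries and never in F0 CD. Of the 14 regions called towards F0 CD, 10 were found in 5 F0 CD libraries and never in F0 WD. These regions entered the consensus set through peaks of 1 diet alone, as did the 2 found in all F0 WD libraries and in no F0 CD library. How often such patterns occur over all consensus regions was counted only for complete separation. Peaks of both diets were present in 3511 (77.7%) of the regions with a run, against 70.2% of the other intronic regions.

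Complete separation of the diets was seen in 2 regions, both in favour of F0 WD (0.0443%, against 0.0323% of all consensus regions). In the other direction there was none, against 0.0444% of all consensus regions. The Asb14 region (chr14:26912574-26912934, 361 bp, 9331 bp from the nearest transcript start) lay in an intron of a gene encoding an ankyrin repeat and SOCS box protein. It had 29, 13, 12 and 25 reads in F0 WD replicates 1 to 4 and no peak in any of the 6 F0 CD libraries (p = 0.00476 by Fisher's exact test, adjusted p = 1). The Rps6kc1 region (chr1:190884228-190884549, 322 bp), in a gene for a protein with a ribosomal S6 kinase-like domain, had 15, 17, 23 and 18 reads in F0 WD and likewise no F0 CD peak. When every list was reduced to its best 13366 peaks, the Asb14 region stayed completely separated. The Rps6kc1 region did not, with a difference in detection of 75 percentage points (p = 0.0333 by Fisher's exact test). The fewest reads at any called summit were 9 to 13 per library, so a region without a peak may still have held reads.

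The naming rule gave 3 further regions found more often in F0 WD. The Inpp4a region, in a gene for a phosphoinositide phosphatase, gave 22, 19 and 19 reads in replicates 1, 3 and 4 of F0 WD. The region in Dlg2, which encodes a scaffold of the postsynaptic density, gave 19, 16 and 20 reads in replicates 1, 2 and 4 of F0 WD. The region in Arhgap26, which encodes a GTPase-activating protein, had 19, 18 and 19 reads in the same 3 libraries. None of these regions had a peak in an F0 CD library (each p = 0.0333 by Fisher's exact test, adjusted p = 1). Leaving out any of the 3 F0 WD libraries that held such a region ended its call (p = 0.0833 by the same exact test).

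In the other direction, 4 regions had a peak in every F0 CD library and in 1 F0 WD library (each p = 0.0333 by Fisher's exact test, adjusted p = 1). The Kcnma1 region (chr14:23720856-23721255), in the gene for the pore-forming subunit of the large-conductance calcium-activated potassium channel, had 27, 17, 17, 18, 16 and 14 reads in F0 CD and 16 in F0 WD replicate 2. The Gsg1l region (chr7:125925668-125926411), in a gene for an auxiliary subunit of AMPA receptors, had 19, 18, 21, 12, 21 and 20 reads in F0 CD and 14 in F0 WD replicate 2. The region in Ksr2, a scaffold of the Raf, MEK and ERK kinases, had 15 to 25 reads in F0 CD and 12 in F0 WD replicate 2. The region in Elmo1, which acts with Dock proteins to activate Rac, had 12 to 19 reads in F0 CD and 16 in F0 WD replicate 3. The Ankrd44 region, which overlaps the noncoding gene 4930444A19Rik as well, had 23, 15, 19, 19 and 25 reads in the 5 F0 CD libraries other than replicate 3 and no F0 WD peak (p = 0.0476 by Fisher's exact test, adjusted p = 1). When every list was reduced to its best 13366 peaks, the Kcnma1 (p = 0.524), Gsg1l (p = 0.19) and Elmo1 (p = 0.19) regions no longer passed Fisher's exact test. The Ksr2 region then fell into 2 separate regions, and neither passed (p = 0.467 and 0.19 by the same exact test). At a q under 0.01 the Elmo1 region also lost its call (exact p = 0.19), and each of the 4 regions held in all F0 CD libraries lost its call when any F0 WD library without a peak there was left out (p = 0.0833 by the same exact test).

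**Figure D5:**
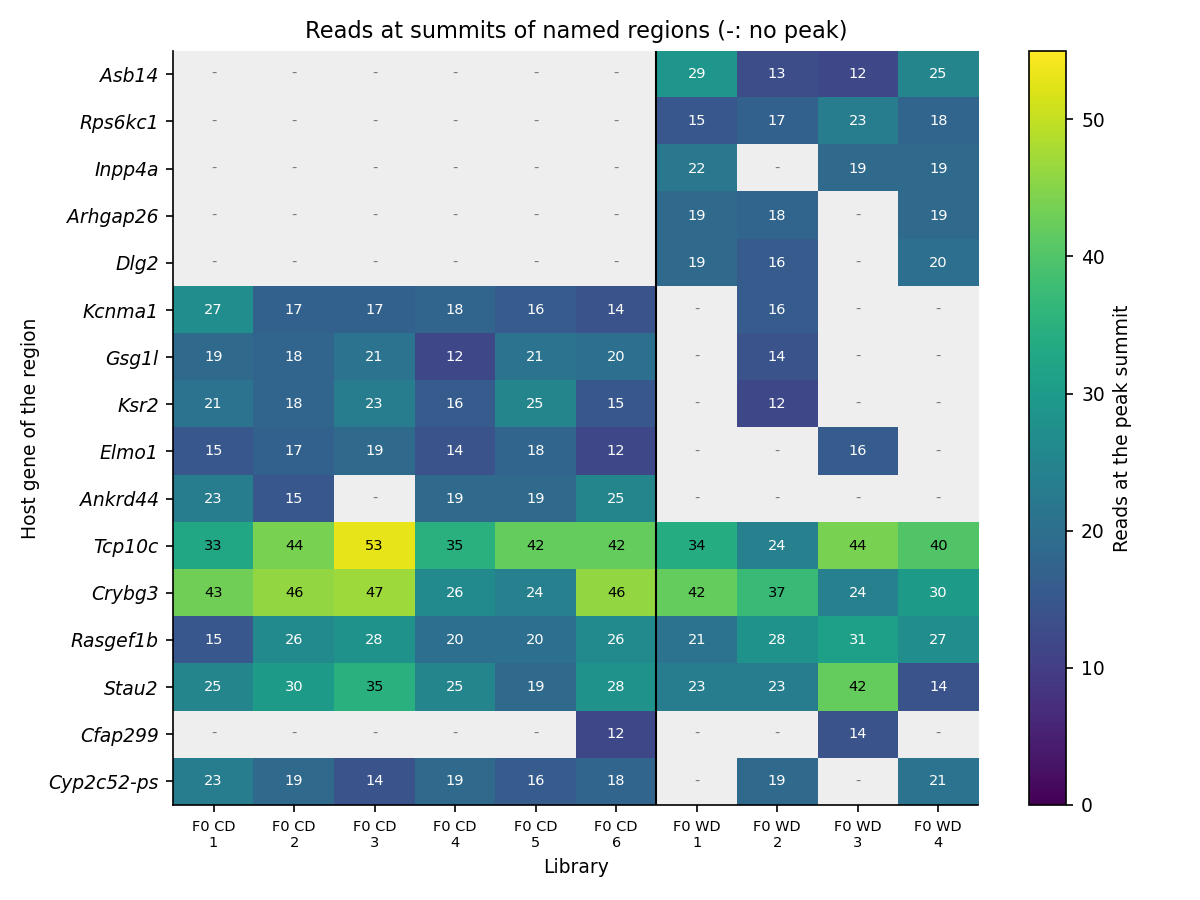
Reads at the peak summit (colour and number) of the named regions (rows, host gene) in each of 6 F0 CD and 4 F0 WD libraries (columns, divided by the black line). A dash stands for no called peak, and regions such as Tcp10c and Crybg3 have 24 to 53 reads in all 10 libraries.

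The regions with a run were spread over many genes. In protein-coding genes lay 3905 of them, within 2232 of 20807 autosomal genes, and 611 lay in other genes alone. Genes with such a region had a median length of 110 kb, against 17.6 kb for all protein-coding genes, and 1490 of the genes held 1 region while 131 held 5 or more. The most regions were in Gm20388 with 40, a gene model of 4435 kb on chromosome 8 that spans other genes, followed by Cdh13, a cadherin anchored to the membrane by a lipid, with 20. Fgfr2, a receptor of fibroblast growth factors, Rbms3, an RNA-binding protein, and Sox5, a transcription factor, had 18 each. The Fgfr2 model is 2961 kb long in this annotation, and its counts rest on that span. Relative to the runs that their introns offer, Sox5 had 31 of 146 runs (21.2%) in consensus regions and Fgfr2 31 of 292 (10.6%), against 8.11% in all protein-coding genes. Among regions whose host genes lie on 1 strand, the repeat read CA on the sense strand in 47.1%, against 45.2% of all such intronic runs, and 8.14% of CA runs and 7.89% of TG runs on the sense strand lay in consensus regions.

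Gene lists with roles in excitability, fertilization and metabolism were described by the share of their intronic runs in consensus regions. The calcium channel subunits had 46 of 519 runs (8.86%) and 31 regions in 16 of 25 genes, led by Cacna1d, the pore of an L-type channel, with 7 regions. The glutamate receptors had 56 of 971 runs (5.77%) in 9 of 26 genes, with 6 regions in Grin2b, an NMDA receptor subunit. The synaptic adhesion genes had 68 of 836 runs (8.13%), with 9 regions each in the teneurins Tenm2 and Tenm3. The potassium channel genes had 65 of 948 runs (6.86%) in 25 of 92 genes, with 6 regions in Kcnj6, an inward rectifier. Genes of sperm chromatin and fertilization had 11 of 176 runs (6.25%), and 7 of these lay in Zpbp, an acrosomal protein that binds the zona pellucida. Insulin signalling genes had 24 of 218 runs (11.0%), 1 of them in Akt2, a kinase of this pathway. All 6 lists lay between 5.77% and 11.0%, around the 8.11% of all protein-coding genes, and the Kcnma1 region was the only one of their 160 regions (0.625%) called between the diets, against 1.15% of the regions in all protein-coding genes.

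The labelled cell type could not be checked from start-site peaks. None of 8 sperm and spermatid genes (Prm1, Prm2, Tnp1, Tnp2, Odf1, Akap4, Smcp and Acr) had a peak within 3 kb of a transcript start in more than 1 library. The same held for 7 genes of epididymal epithelium and 5 leukocyte genes. Kit, a gene of testicular germ cells, had such a peak in 2 libraries. The libraries differed in depth as read from the lowest local background, 2.46 to 4.42 reads in F0 CD and 2.11 to 3.71 in F0 WD. They shared few of the regions, with a mean Jaccard index over the regions with a run of 0.302 for pairs of F0 CD libraries, 0.271 for pairs of F0 WD libraries and 0.292 for pairs of different diets.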

How the data were processed

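ATAC-seq peak lists of 10 sperm libraries were analysed. According to the submitters' processing notes and the methods, the paired reads were trimmed (Trim Galore 0.6.10) and mapped to the mm10 (GRCm38) genome (Bowtie2 2.4.5). Up to 20 alignments were reported per read pair. Duplicates (Picard 2.24.0) and alignments of quality under 5 were then removed, and only short fragments were kept. How many of the reads at CA/TG runs were uniquely placed is not known here. MACS2 2.2.7.1 then called peaks in each library at q under 0.05. The deposited columns hold the score, which the authors' caller made from the q-value, the fold enrichment, a ratio of summit reads to local background, and the p- and q-values, deposited as −log10 values. No counts were used, so depth is known only through the local background.

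Where several peaks of a library fell in a region, the most significant was used. Reads at each summit and its background were solved as the whole number whose Poisson p matched within 0.001 (summits with −log10 p under 60). The solver and the Fisher calls were checked on simulated data, and the run finder on mm10 sequence. The permutation and sign-flip tests were checked on small examples with known answers. Diets were compared by exact permutation over libraries and by Fisher's exact test over all 24763 regions, and within-library differences by an exact sign-flip test. Labels mark libraries as biological replicates.

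Regions, gene lists and tests were chosen with earlier results of these data known. Named were the completely separated regions, up to 5 called per diet, the 5 found in all libraries with most reads, the 3 longest runs, 1 typical region, the 5 genes with most regions and, per gene list, genes with called or with most regions. Some regions and genes that this rule names are not reported here. Alternatives were q under 0.01, lists of equal length, 3 libraries, other run lengths, a run at the summit, a start-site distance of 1 kb, mid-p, replicate numbers as blocks and each library left out. Scripts ran in Python 3.11.15 with pysam 0.24.0, pandas 2.3.3, scipy 1.17.1, numpy 2.4.6 and matplotlib 3.10.9. Intronic positions come from GENCODE M21 and sequences from the GRCm38 reference.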

Additional observations from a re-analysis of the deposited data

Results flagged for a closer look

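Within each diet, 34 groups of values were examined for a library far from the others, and 4 were found, in a search that marks about 1 in 20 groups by chance. F0 WD replicate 4 lay below the other F0 WD libraries in the number of regions with a run that had a peak, 1122, in the share of those regions it held, 24.8%, and in the share of intronic runs of 10 to 14 units under a peak, 2.84%. It also had the fewest peaks of all libraries. F0 CD replicate 2 lay above the other F0 CD libraries in the share of distal runs under a peak, 5.57%, and had the most peaks. The results without each library are given with the alternatives.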

How the results depend on the processing

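Each result was recomputed under 2 to 9 other settings and without each library in turn. The difference between summit and flank, the excess of intronic over distal runs and the effect of over 20 further units kept their direction and passed the exact test under every setting run, and without each library gave 6.58 to 6.95, 0.324 to 0.371 and 15.3 to 17.5 percentage points. At a q under 0.01 the difference in summit reads was 0.4. With at least 3 libraries required there were 2775 regions with a run, and the differences were 0.3 reads, 1.65 bp in width and 0 units in the median run between diets. With runs of at least 15 units the difference in width was 0.45 bp and that in the median run 0 units. In this setting 8 of 3195 regions were called towards F0 CD, beside 116 (0.468%) of all consensus regions. With the run within 100 bp of the summit the width difference was -12.7 bp and the difference in detection -2.03 percentage points. Here 6 of 3355 regions were called towards F0 CD, beside the same 116 (0.468%) of all consensus regions. Mid-p called 54 (1.2%) towards F0 CD, against 1.39% of all consensus regions. Among runs with no further units, a split added after the data were examined, runs of 20 or more units exceeded runs of 10 to 14 units by 0.585 percentage points. The cause of these changes was not tested.

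Without each library in turn, the diet difference ranged from -224 to 52.8 in the number of regions from 0 to 0.333 units in the median run, from 0.881 to 2.23 percentage points in the share of regions with a run and from 0.0534 to 0.392 in summit reads over background. In the same fits 24 to 60 regions with a run (0.585% to 1.58%) were called towards F0 WD, beside 84 to 245 (0.369% to 1.19%) of all consensus regions. Towards F0 CD they were 14 to 49 (0.328% to 1.15%), beside 112 to 284 (0.483% to 1.23%). The difference in number was positive without F0 CD replicate 2 (40.3 regions) and without F0 WD replicate 4 (52.8 regions). Replicate numbers 1 to 4 occur in both diets, and the labels do not say whether libraries of the same number belong together. Detection in libraries of the same number did not vary together (correlations of -0.0098, 0.0246, -0.0055 and -0.004). That cannot decide whether the numbers are pairs, since it does not show how the libraries were prepared. With a replicate block 0 regions were called towards F0 WD and 0 towards F0 CD, since 4 pairs allow no p under 0.125, and the 4 diet comparisons kept their direction without passing, with a share difference of 1.46 percentage points (exact sign-flip p = 0.625). Of 128 recomputed values for the 10 named called regions, 103 kept their call, 25 lost it and 0 turned direction. The Ksr2 region has no value with equal lists and without F0 CD replicate 6, where it fell into 2 regions, of which 0 passed with equal lists (p = 0.467 and 0.19 by Fisher's exact test) and 1 without that library (p = 0.167 and 0.0476). Settings that do not enter a result gave no value for it. A called summit needed at least 9 to 13 reads, depending on the library, and the lists show nothing of regions below that.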
